A study of Mus musculus and Acomys cahirinus with 16 samples.

Results

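The 9 genes described here are a pair of Ras genes, Hras and Nras, and 7 genes that are known to be switched on by the kinase ERK at the end of the Ras cascade: the dual-specificity phosphatases Dusp4, Dusp5 and Dusp6, the Sprouty genes Spry2 and Spry4, and the ETS transcription factors Etv4 and Etv5. They were chosen by symbol, with earlier results of these data known. All 9 were found among the 18109 symbols that occur once in each of the mouse and spiny mouse count tables. All 9 passed the filter on low counts in both species. Polyadenylated RNA was sequenced from skin of 2 rodents, the house mouse Mus musculus and the spiny mouse Acomys cahirinus, with 4 untreated and 4 DMBA/TPA-treated samples per species, 16 samples in all. DMBA is a carcinogen that damages DNA, and TPA is a phorbol ester used as a tumour promoter on skin. The labels give no genetic manipulation in any group, and they name no strain, age, sex, dose or time after treatment. They also do not say whether a treated sample was tumour or surrounding skin, nor whether animals were pooled. The series' design text describes irradiated fibroblasts instead, and the sample labels were followed. Nothing states that the 4 samples of a group came from separate animals, so p-values measure the spread between these samples, which may be technical.

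Ras proteins are small GTPases at the inner face of the plasma membrane. When growth factor receptors are active, Ras in its GTP-bound form starts the kinase chain from Raf through MEK to ERK. Active ERK raises transcription of its own inhibitors, among them Dusp and Sprouty genes, and transcripts of these feedback genes are widely used as a readout of ERK signalling. In mouse skin, DMBA is known to mutate Hras, and phorbol esters act on protein kinase C and on RasGRP exchange factors upstream of ERK. Gene counts give transcript levels and hold no information on mutations or on the activity of the kinases.

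The mouse libraries held 19608787 to 30198281 counts and the spiny mouse libraries 21143918 to 30561256. Levels are CPM, the count of a gene relative to its library total after scaling by TMM factors, and levels compared between genes are CPM per kilobase of exonic length (FPKM). Markers of the epidermis were present in every group, as the label of skin requires: the summed level of 6 keratinocyte genes was 6408 to 12770 CPM in untreated and 19780 to 28400 CPM in treated mouse samples, and 12780 to 16040 and 22870 to 29350 CPM in spiny mouse. Other tissue moved with treatment as well. The summed level of 6 genes of the growing hair follicle was 9.61, 2316, 36.8 and 9.70 CPM in untreated mouse replicates 1 to 4 and 20760 to 22970 CPM in treated mouse samples, and all 6 genes rose. In spiny mouse the same sum was 1083 to 11020 CPM untreated and 190.3 to 3234 CPM treated, and none of the 6 passed the test. Skeletal muscle markers fell in both species, from 7930 to 9856 down to 1786 to 2305 CPM in mouse (6 of 6) and from 9478 to 12190 down to 3141 to 6425 CPM in spiny mouse (5 of the 5 tested). Leukocyte markers were called lower for 2 of 6 in mouse, near the share of all genes, and their sums overlapped (194.7 to 431 CPM untreated, 177 to 246 treated). In spiny mouse 5 of 5 leukocyte markers rose (188.5 to 253 untreated, 467 to 712 treated). Endothelial markers fell for 4 of 6 in mouse (175.6 to 180.7 CPM untreated, 111.0 to 151.3 treated) and for 3 of 6 in spiny mouse (229 to 283.5 and 189 to 239). Adipocyte markers were called lower for 2 of 6 in mouse, near the share of all genes, and their sums overlapped (232 to 951 and 283 to 466). In spiny mouse 4 of 6 adipocyte markers fell (1274 to 1468 and 657 to 962). Of 6 fibroblast markers, 2 were called lower in mouse, near the share of all genes (6988 to 11170 and 4710 to 7085). In spiny mouse 2 were called lower and 1 higher (3100 to 4961 and 1944 to 2836). None of the markers in the tables was at 0 in any group. In such bulk samples, a change in the number of cells of a type and a change in RNA per cell cannot be told apart, and the part of these shifts in the results on the 9 genes was not tested.

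In mouse skin, 8 of the 9 genes rose with DMBA/TPA and Spry2 alone fell, at an adjusted p under 0.05 in the quasi-likelihood test of edgeR. Called genes made up 61.2% of the 19740 mouse genes tested, with 25.9% called higher and 35.3% called lower. In spiny mouse skin, 4 of the 9 genes passed the same test, against 55.1% of 14833 genes tested, so their share of calls there was no larger than that of all genes. Dusp5, Dusp6 and Etv4 rose and Spry4 fell, where 28.2% of all spiny mouse genes were called higher and 26.9% lower. The median log2 fold change of the 9 genes was 1.14 in mouse and 0.12 in spiny mouse, beside -0.15 and -0.01 over all genes tested. Because the 9 were chosen with earlier results of these data known, their counts and medians beside all genes are description only. The split of all mouse calls depends on scaling, with 42.4% of them higher under TMM factors, 48.4% under DESeq2 size factors, 30.5% under upper-quartile factors and 28.6% under library size alone. Among the 9 genes no scaling turned a called direction. A called rise of at least 1 on the log2 scale was found for Dusp4, Dusp5, Dusp6, Spry4 and Etv4 in mouse, where 9.81% of all genes showed one, and for Etv4 alone in spiny mouse, where 6.74% did.

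**Figure D1:**
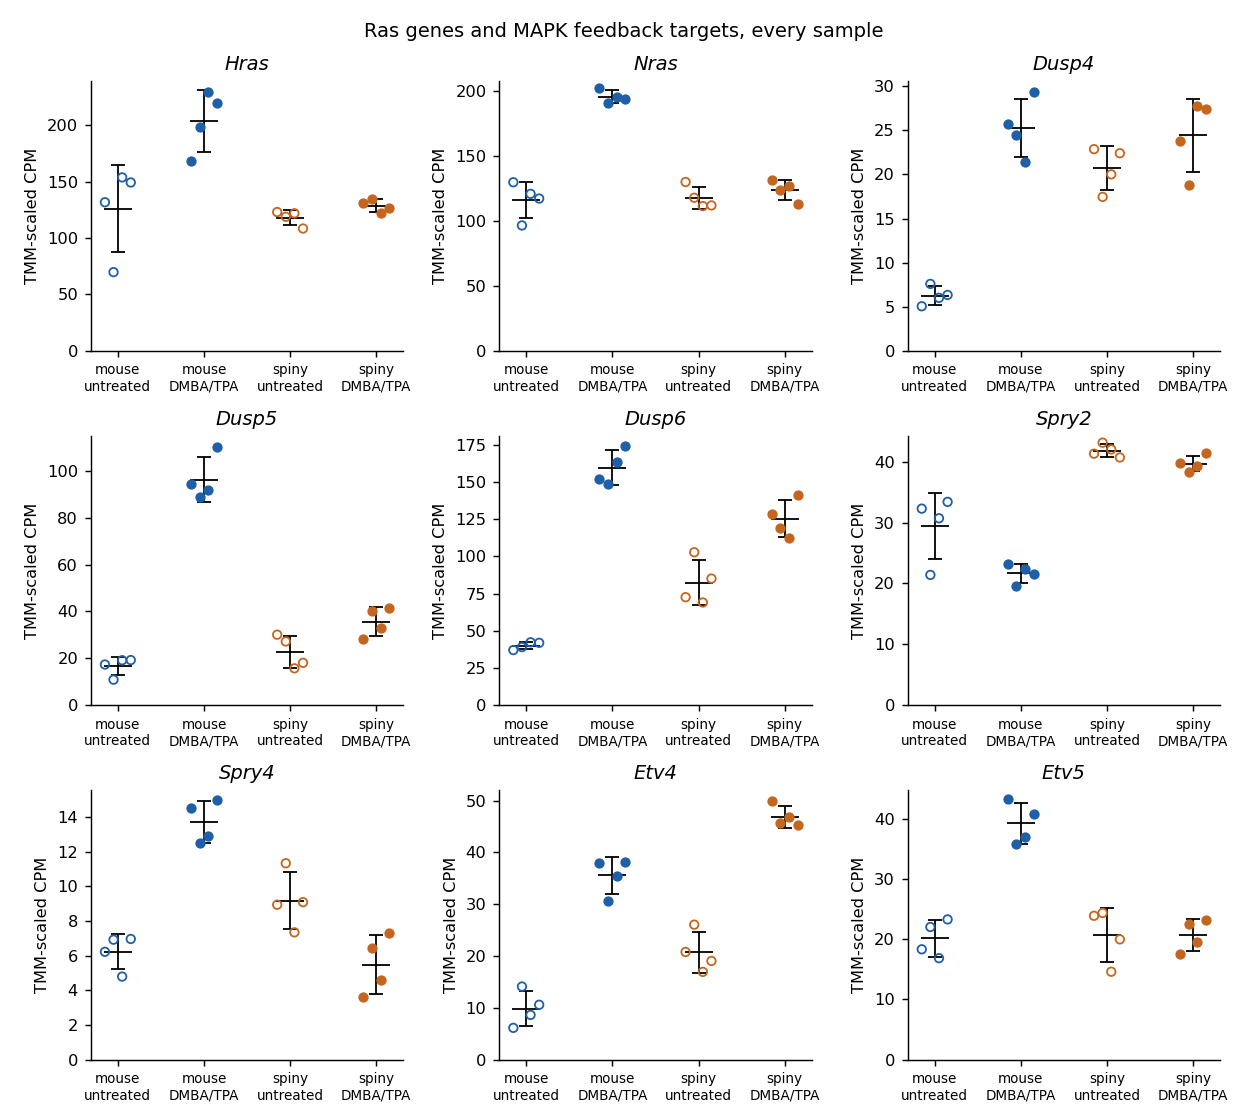
CPM of each gene in each of the 16 samples, on a separate axis per gene, with mouse and spiny mouse samples split into untreated and DMBA/TPA-treated groups, points for samples, a horizontal line for each group mean and error bars for the SD. In mouse the treated points lie above every untreated point for 8 genes, while in spiny mouse they do so for Dusp6 and Etv4 and lie below for Spry4.

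Hras encodes the Ras protein most closely tied to skin tumours of the mouse. In mouse (ENSMUSG00000025499, GRCm39 chr7:140769018-140773918, minus strand), Hras stood at 132, 69.7, 154 and 149 CPM in untreated replicates 1 to 4 and at 168, 198, 229 and 219.9 CPM in treated replicates 1 to 4. The groups did not overlap, and untreated replicate 2 was far below the other untreated samples. Groups that do not overlap, with treated samples higher, were found for 26.6% of all mouse genes. Mean Hras went from 126 ± 38.7 to 204 ± 27.2 CPM (SD, n = 4), a log2 fold change of 0.69 ± 0.23 (SE) with an adjusted p of 0.0277 in edgeR. The call was lost under upper-quartile factors (0.51, adjusted p = 0.059) and library size alone (0.47, adjusted p = 0.0816). It was also lost without treated replicate 3 (0.65, adjusted p = 0.0659) or treated replicate 4 (0.68, adjusted p = 0.0615), and it held without untreated replicate 2 (0.58, adjusted p = 0.000613).

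Spiny mouse Hras (AcoCah2 scaffold 17, 58628040 to 58632001) was at 123, 119, 122 and 108.4 CPM untreated and 131, 135, 122 and 127 CPM treated. Treated replicate 3, the lowest of its group, lay below untreated replicate 1, so the ranges overlapped by a narrow margin. The log2 fold change was 0.13 ± 0.061, with an adjusted p of 0.109 in edgeR. The difference between the species in the Hras response, spiny mouse minus mouse, was -0.57 ± 0.25 and did not pass the test (adjusted p = 0.0787), although it did without untreated mouse replicate 2 (-0.46, adjusted p = 0.00664), without untreated mouse replicate 3 (-0.74, adjusted p = 0.0205) and without treated mouse replicate 2 (-0.68, adjusted p = 0.0427). It also passed with DESeq2 size factors (-0.68, adjusted p = 0.0278), with the DESeq2 Wald test (adjusted p = 0.0141), with no filter on low counts (-0.70, adjusted p = 0.0364) and with another TMM reference library (-0.64, adjusted p = 0.0344). The Hras difference missed the threshold in 13 of the 16 fits that left out 1 library and in 4 of the 8 other settings. Among these were upper-quartile factors (-0.42, adjusted p = 0.141 in edgeR) and library size alone (-0.36, adjusted p = 0.215).

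Nras encodes a near relative of the Hras protein. In mouse (ENSMUSG00000027852, GRCm39 chr3:102965601-102975230, plus strand), its levels were 129.5, 96.3, 121 and 117 CPM in the untreated samples and 202, 190.2, 195 and 193 CPM in the treated ones. All treated samples lay far above all untreated ones and close to each other, with an SD of 4.97 CPM among the treated samples against 14.1 among the untreated. The log2 fold change was 0.75 ± 0.11 (adjusted p = 0.000503), a ratio of means of 1.68. Spiny mouse Nras (AcoCah2 scaffold 13, 52578321 to 52591290) was at 129.7, 118, 111 and 112 CPM untreated and 131, 124, 126 and 113 CPM treated, and the groups overlapped almost fully. The spiny mouse log2 fold change was 0.07 ± 0.072 (adjusted p = 0.406). For Nras the species did differ in their response, by -0.68 ± 0.13 (adjusted p = 0.00052), and this held in all 24 alternatives.

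The balance of the Ras genes did not move with treatment beyond the spread between samples. Per length, Hras made up 59.2%, 50.8%, 64.5% and 64.5% of the summed Hras and Nras FPKM in untreated mouse replicates 1 to 4 and 54.3%, 59.8%, 62.7% and 61.9% in the treated ones, with means of 59.8 ± 6.47% and 59.7 ± 3.79% (SD, n = 4). In spiny mouse the shares were 67.6%, 69.0%, 70.7% and 68.1% untreated and 68.8%, 70.5%, 68.0% and 71.1% treated, with means of 68.8 ± 1.35% and 69.6 ± 1.44%. Treated and untreated samples overlapped within each species, and library scaling cancels in this ratio. The species are not comparable on it, because the deposited exonic length of Hras was 3733 bases in mouse and 2212 in spiny mouse, against 5331 and 4864 for Nras.

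The phosphatases Dusp4, Dusp5 and Dusp6 remove the activating phosphates from ERK. Dusp4 and Dusp5 act mainly in the nucleus and Dusp6 in the cytoplasm. With all libraries these were the 3 largest rises among the 9 genes in mouse, while without untreated mouse replicate 2 Etv4 (2.16) came before Dusp6 (2.07). For all 3 the response in spiny mouse was smaller by the test of the difference. The upstream sequence is shown for Dusp5 and Dusp6, the largest rise and the rise with the smallest error, with Hras beside them as a Ras gene with a modest rise. Each is the 250 bases before the transcript start as RefSeq places it on GRCm38.p6, 5′ to 3′ in the direction of the gene, with capitals for bases in a motif match.
Dusp5, chr19:53528895-53529144, plus strand: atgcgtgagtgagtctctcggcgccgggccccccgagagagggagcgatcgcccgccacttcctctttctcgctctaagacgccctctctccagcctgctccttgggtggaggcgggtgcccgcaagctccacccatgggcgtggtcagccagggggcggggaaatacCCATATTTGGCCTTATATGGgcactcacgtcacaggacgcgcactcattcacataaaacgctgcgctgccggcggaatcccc
Dusp6, chr10:99262981-99263230, plus strand: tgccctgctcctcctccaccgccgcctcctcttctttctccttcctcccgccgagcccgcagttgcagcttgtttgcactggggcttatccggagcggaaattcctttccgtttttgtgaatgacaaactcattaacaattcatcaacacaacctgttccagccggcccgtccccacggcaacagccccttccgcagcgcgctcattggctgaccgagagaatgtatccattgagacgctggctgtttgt
Hras, chr7:141194005-141194254, minus strand: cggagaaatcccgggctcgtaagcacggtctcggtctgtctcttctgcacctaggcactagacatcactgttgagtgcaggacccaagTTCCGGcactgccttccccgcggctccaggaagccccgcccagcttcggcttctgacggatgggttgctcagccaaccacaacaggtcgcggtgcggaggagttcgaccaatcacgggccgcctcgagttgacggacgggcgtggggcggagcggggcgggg
Promoters of 300 bases (250 before to 50 after the start) were on hand for 6 of the 9 genes. They were searched on both strands for CCGGAA, which is only 1 form of the ETS site, and for the AP-1 site TGANTCA. The cAMP response element TGACGTCA and the CArG box, the site of serum response factor, were searched for as well. Other forms of the ETS site were not searched for. The CArG box was added after the sequences had been seen. No match to any of these motifs overlapped another. The Dusp5 promoter held 2 abutting CArG boxes, whose first bases lie at positions -82 and -72 from the start. Of all 32851 RefSeq promoters, 1.63% held a CArG box and 6 held at least 2. The Hras promoter held 1 CCGGAA, printed as TTCCGG on the gene's strand, at position -162. The Spry2 promoter held 1 at position 34, where 14.9% of all promoters held one. Matches to the AP-1 site, found in 7.81% of all promoters, and to the cAMP response element, found in 1.79%, were not seen in these windows of Hras, Nras, Dusp5, Dusp6, Spry2 and Etv5. The windows of Nras, Dusp6 and Etv5 held none of the 4 motifs in the forms searched, which does not mean that they lack ETS sites. A match is a description of letters, not a measured binding site.

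Dusp5 showed the largest rise of the 9 genes in mouse (ENSMUSG00000034765, GRCm39 chr19:53517540-53530862, plus strand). Its levels were 17.4, 10.9, 19.2 and 19.3 CPM untreated and 94.5, 88.7, 91.7 and 110.1 CPM treated. The lowest treated sample was several times the highest untreated one. The means were 16.7 ± 3.95 and 96.2 ± 9.55 CPM, a ratio of 5.77 and a log2 fold change of 2.53 ± 0.18 (adjusted p = 1.24e-05). Over 547 of its exonic bases Dusp5 overlaps the gene Gm50394 on the opposite strand, and counting used no strand option, but Gm50394 itself had only 2 to 9 counts in any mouse sample. The spiny mouse gene (AcoCah2 scaffold 17, 7609198 to 7621909) was at 30.1, 27.2, 15.8 and 18.1 CPM untreated and 28.1, 40.1, 32.9 and 41.4 CPM treated. Treated replicates 2, 3 and 4 lay above every untreated sample, and treated replicate 1 lay inside the untreated range. The spiny mouse rise was 0.64 ± 0.22 on the log2 scale (adjusted p = 0.0299). It missed the threshold without untreated replicate 3 (0.50, adjusted p = 0.0594), untreated replicate 4 (0.55, adjusted p = 0.0788), treated replicate 2 (0.59, adjusted p = 0.068) or treated replicate 4 (0.58, adjusted p = 0.0726). The response was smaller in spiny mouse than in mouse by 1.88 on the log2 scale (difference -1.88 ± 0.3, adjusted p = 0.000124).

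Dusp6 is a phosphatase specific for ERK and a standard transcript readout of the pathway. In mouse (ENSMUSG00000019960, GRCm39 chr10:99099093-99103351, plus strand), it was at 37.0, 39.0, 42.3 and 41.9 CPM untreated and 152, 149, 163 and 174 CPM treated. The untreated samples were tight, and the treated samples all lay far above them. Its log2 fold change of 1.99 ± 0.099 had the smallest standard error of the 9 genes in mouse (adjusted p = 3.46e-06). Spiny mouse Dusp6 (AcoCah2 scaffold 16, 68170733 to 68175536) was at 72.5, 103, 69.0 and 85.0 CPM untreated and 128, 119, 112 and 141 CPM treated. Here too every treated sample lay above every untreated one, as for 26.7% of all spiny mouse genes, with a small gap between untreated replicate 2 and treated replicate 3. The means were 82.3 ± 15.2 and 125 ± 12.6 CPM, a log2 fold change of 0.61 ± 0.13 (adjusted p = 0.00346). The rise passed in all alternatives in both species, and the species difference in it was -1.39 ± 0.16 (adjusted p = 1e-05).

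Dusp4 was among the low genes of untreated mouse skin (ENSMUSG00000031530, GRCm39 chr8:35274451-35287048, plus strand). It was at 5.05, 7.59, 6.01 and 6.33 CPM untreated and 25.7, 24.4, 21.4 and 29.4 CPM treated. The groups were far apart, with a ratio of means of 4.04 and a log2 fold change of 2.02 ± 0.16 (adjusted p = 1.62e-05). In spiny mouse (AcoCah2 scaffold 13, 92368416 to 92381164), Dusp4 was at 22.9, 17.4, 20.0 and 22.4 CPM untreated and 23.8, 18.8, 27.7 and 27.4 CPM treated, and the groups overlapped. The spiny mouse log2 fold change was 0.24 ± 0.14 (adjusted p = 0.168), and among the alternatives it passed only without treated replicate 2, the lowest of its group (0.35, adjusted p = 0.0314). The species differed in the response by -1.78 ± 0.21 (adjusted p = 1.09e-05). The deposited exonic length of Dusp4 was 2740 bases in mouse and 2450 in spiny mouse, and per length the untreated level was 2.28 ± 0.383 FPKM in mouse and 8.44 ± 1.02 FPKM in spiny mouse. The spiny mouse level without treatment was thus near the treated mouse level of 9.21 ± 1.2 FPKM. These levels come from tables made on separate annotations and were not tested against each other.

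Sprouty proteins are inhibitors that bind the receptor and adaptor end of the cascade and are themselves induced by ERK. Spry2 and Spry4 went opposite ways in mouse, and Spry4 went opposite ways in the 2 species. Spry4 (ENSMUSG00000024427, GRCm39 chr18:38719300-38734468, minus strand) was at 6.23, 6.93, 4.80 and 6.97 CPM in untreated and 14.5, 12.5, 12.9 and 15 CPM in treated mouse samples. Every treated sample stood well above every untreated one. The rise was 1.14 ± 0.15 on the log2 scale (adjusted p = 0.000252), from 6.23 ± 1.01 to 13.8 ± 1.21 CPM. In spiny mouse (AcoCah2 scaffold 3, 47233831 to 47249111) the order of the groups was turned round, with 8.95, 11.3, 7.35 and 9.10 CPM untreated and 3.59, 6.47, 4.61 and 7.31 CPM treated. The highest treated sample, replicate 4, lay just under the lowest untreated one, replicate 3, and such a separation with treated samples lower was found for 24.1% of all spiny mouse genes. The log2 fold change was -0.74 ± 0.23 (adjusted p = 0.0201). This fall missed the threshold without untreated replicate 2 (-0.62, adjusted p = 0.0554) or treated replicate 3 (-0.66, adjusted p = 0.0506). The test of the difference gave -1.88 ± 0.28 (adjusted p = 7.54e-05) and passed in all alternatives. Of the 13656 genes tested in both species, 4.72% were called with a rise in mouse and a fall in spiny mouse, and Spry4 was the 1 of the 9 genes among them.

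Spry2 (ENSMUSG00000022114, GRCm39 chr14:106129381-106134253, minus strand) was at 32.3, 21.4, 30.7 and 33.4 CPM in untreated and 23.2, 19.6, 22.3 and 21.6 CPM in treated mouse samples. The groups overlapped because untreated replicate 2 was as low as the treated samples. The log2 fold change of -0.44 ± 0.15 passed in edgeR (adjusted p = 0.0249). This call did not hold with DESeq2 size factors (-0.34, adjusted p = 0.0542) or with no filter on low counts (-0.30, adjusted p = 0.144), and it was lost in 7 of the 8 fits that left out 1 mouse library, where the adjusted p reached 0.126. The exception was the fit without untreated replicate 2 (-0.48, adjusted p = 0.000455). Spiny mouse Spry2 (AcoCah2 scaffold 6, 16987955 to 16993354) was at 41.3, 43.1, 42.0 and 40.7 CPM untreated and 39.7, 38.4, 39.3 and 41.4 CPM treated. All 8 samples lay within a narrow band, with overlapping groups, and the log2 fold change was -0.07 ± 0.058 (adjusted p = 0.304). It overlaps LOC118568135 on the same strand over 627 bases, and that feature had 0 to 3 counts per sample. The difference between the species was 0.37 ± 0.15 and did not pass (adjusted p = 0.0638), although it did without untreated mouse replicate 2 (0.40, adjusted p = 0.00145) and under upper-quartile factors (0.52, adjusted p = 0.00355) or library size alone (0.58, adjusted p = 0.0024).

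Etv4 and Etv5 are ETS transcription factors of the PEA3 group, whose genes are induced through ERK and whose proteins drive growth and branching programmes in epithelia. Etv4 rose in both species. In mouse (ENSMUSG00000017724, GRCm39 chr11:101660568-101676197, minus strand), it was at 6.15, 14.1, 8.64 and 10.6 CPM untreated and 38.0, 30.6, 35.5 and 38.1 CPM treated. Untreated replicate 2 was the highest of its group and still less than any treated sample. The log2 fold change was 1.85 ± 0.23 (adjusted p = 0.000162), and 2.16 without untreated replicate 2 (adjusted p = 6.4e-07). Spiny mouse Etv4 (AcoCah2 scaffold 9, 19558157 to 19575310) was at 20.8, 26.1, 16.9 and 19.1 CPM untreated and 49.9, 45.6, 46.8 and 45.2 CPM treated. The treated samples were close together and all lay well above the untreated ones. Mean Etv4 went from 20.7 ± 3.89 to 46.9 ± 2.09 CPM in spiny mouse, a log2 fold change of 1.18 ± 0.12 (adjusted p = 8.51e-05), the largest of the 9 genes there. The test of the difference gave -0.67 ± 0.26 with an adjusted p of 0.0475, just past the threshold. It missed the threshold in 13 of the 16 fits that left out 1 library, with values from -0.98 to -0.51 and adjusted p up to 0.107, and it also missed it under upper-quartile factors (-0.49, adjusted p = 0.175), under library size alone (-0.43, adjusted p = 0.222) and with a replicate block (-0.70, adjusted p = 0.0767). It held without untreated mouse replicate 2 (-0.98, adjusted p = 0.00138), treated mouse replicate 2 (-0.82, adjusted p = 0.0317) and untreated spiny mouse replicate 3 (-0.76, adjusted p = 0.0329).

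Etv5 rose in mouse and did not pass the test in spiny mouse. In mouse (ENSMUSG00000013089, GRCm39 chr16:22200059-22258469, minus strand), it was at 18.3, 22.02, 16.9 and 23.3 CPM untreated and 43.3, 35.8, 37.0 and 40.7 CPM treated. The groups did not overlap, and the log2 fold change was 0.96 ± 0.13 (adjusted p = 0.000243). In spiny mouse (AcoCah2 scaffold 4, 80583568 to 80649030), Etv5 was at 23.9, 24.4, 14.6 and 20.0 CPM untreated and 17.6, 22.4, 19.6 and 23.3 CPM treated. The treated samples lay inside the untreated range, the means were 20.7 ± 4.52 and 20.7 ± 2.63 CPM, and the log2 fold change was 0.00 ± 0.16 (adjusted p = 0.997). For Etv5 the species difference was -0.96 ± 0.21 (adjusted p = 0.00192) and passed in all alternatives.

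The response of 7 of the 9 genes differed between the species by the interaction test of edgeR, and in all 7 the log2 fold change was smaller in spiny mouse. Among the 13656 genes tested in both species, 46.1% were called different, 24.7% smaller and 21.4% larger in spiny mouse. Dusp4, Dusp5, Dusp6 and Spry4 differed by more than 1 on the log2 scale, a size and direction called for 9.94% of all genes. The median difference was -0.96 over the 9 genes and -0.03 over all genes tested. The interaction uses the same samples as the within-species comparisons and is no independent evidence beside them. All 9 were called without untreated mouse replicate 2, 8 of them smaller and Spry2 larger in spiny mouse. That fit called 7711 of 13701 genes, 4633 smaller and 3078 larger in spiny mouse. The split of all called differences depends on scaling, with 46.4% of them larger in spiny mouse under TMM factors, 36.9% under DESeq2 size factors, 61.2% under upper-quartile factors and 66.2% under library size alone. Under each of these scalings Nras, Dusp4, Dusp5, Dusp6, Spry4 and Etv5 were called smaller in spiny mouse. Genes called higher in both species made up 15.1% of the genes tested, and Dusp5, Dusp6 and Etv4 were the 3 of the 9 among them.

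**Figure D2:**
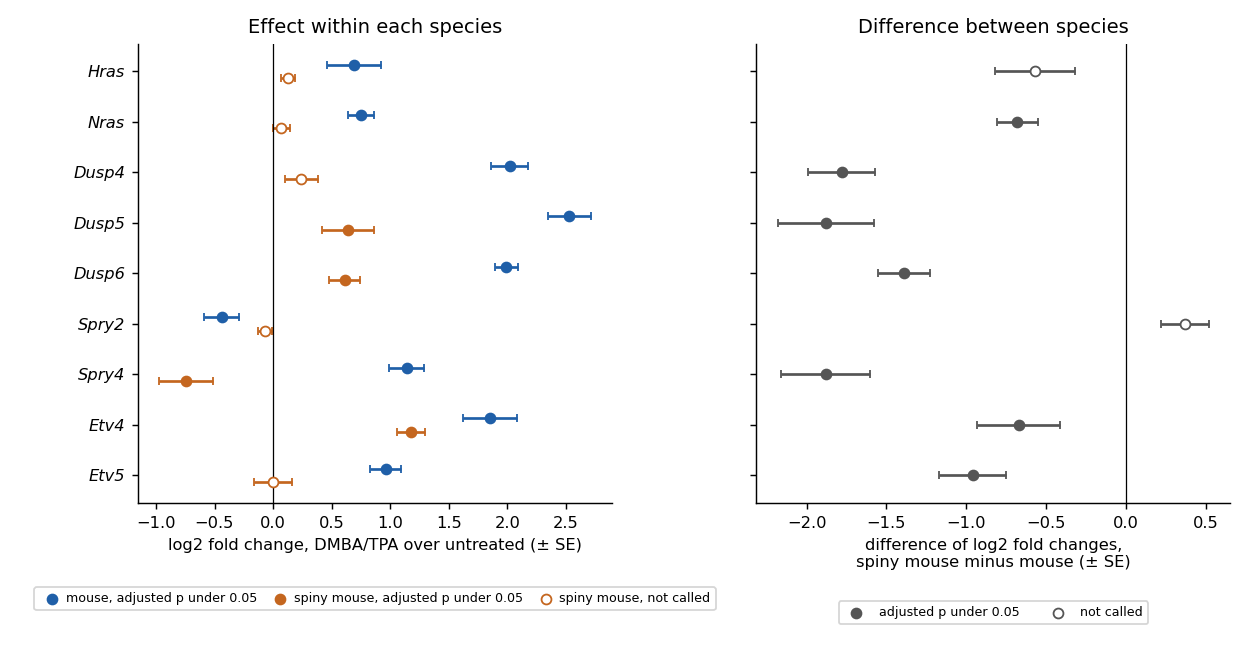
Left: log2 fold change of treated over untreated skin (± SE) for each gene in mouse and spiny mouse, with filled points at an adjusted p under 0.05. Right: the spiny mouse minus mouse difference of those fold changes (± SE), which lies below 0 for all genes but Spry2, with open points for Hras and Spry2, which did not pass.

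Per length, Hras was the most abundant of the 9 genes in every group and Spry4 the least. In untreated mouse skin the order of mean FPKM was Hras (33.8), Nras (21.7), Spry2 (14.1), Dusp6 (12.8), Dusp5 (6.75), Etv5 (4.90), Etv4 (3.18), Dusp4 (2.28) and Spry4 (1.31). Of the neighbours in that order, Nras and Spry2, Dusp6 and Dusp5, and Dusp4 and Spry4 were apart in all 4 samples, and the other neighbours overlapped. In treated mouse skin the order was Hras (54.6), Dusp6 (50.9), Dusp5 (38.9), Nras (36.6), Etv4 (11.4), Spry2 (10.4), Etv5 (9.56), Dusp4 (9.21) and Spry4 (2.89). There Hras and Dusp6 overlapped, Dusp5 and Nras overlapped, Etv4, Spry2, Etv5 and Dusp4 formed a run of overlapping neighbours, and Spry4 stood apart below them. Dusp5 thus moved from well below Nras to a level that overlapped it.

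In untreated spiny mouse skin the order was Hras (53.4), Dusp6 (25.2), Nras (24.2), Dusp5 (12.7), Spry2 (9.46), Dusp4 (8.44), Etv4 (4.54), Etv5 (4.18) and Spry4 (0.907). Dusp6 and Nras overlapped, as did Dusp5 with Spry2, Spry2 with Dusp4, and Etv4 with Etv5. In treated spiny mouse skin it was Hras (58.2), Dusp6 (38.3), Nras (25.4), Dusp5 (19.8), Etv4 (10.3), Dusp4 (9.96), Spry2 (8.98), Etv5 (4.18) and Spry4 (0.543), where only the run from Etv4 through Dusp4 to Spry2 overlapped. Etv4 and Etv5, which overlapped before treatment, were apart after it. The 2 species' orders rest on separate annotations, in which the exonic length of Spry4 was 4755 bases in mouse and 10129 in spiny mouse.

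**Figure D3:**
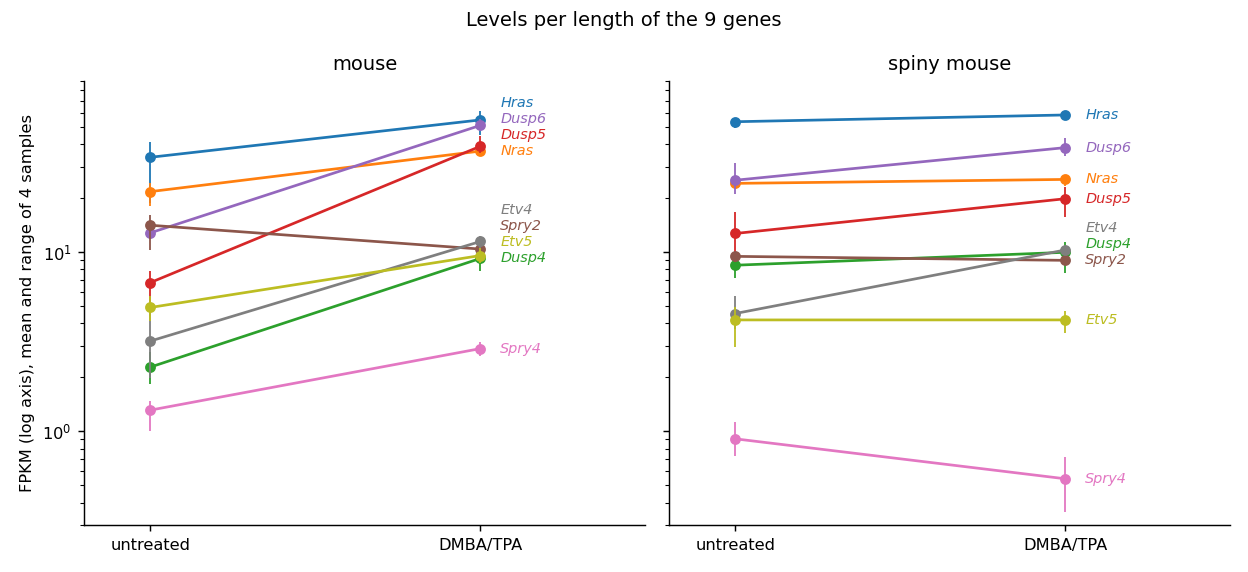
Mean FPKM of each gene in untreated and treated skin, on a log axis, with vertical lines for the range of the 4 samples and 1 panel per species. The lines of Dusp4, Dusp5, Dusp6 and Etv4 climb most in mouse, and that of Etv4 climbs most in spiny mouse.

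Other genes of the pathway were taken from 3 lists, which were also chosen with earlier results of these data known. The first held 17 genes of the relay from receptor adaptors through Ras relatives and Raf to ERK. In mouse 11 of the 17 were called, 8 higher and 3 lower, with a median log2 fold change of 0.19, where 61.2% of all genes were called. Under upper-quartile factors or library size alone the split became 5 higher and 6 lower, so no direction is given for the relay as a whole. In spiny mouse 6 of the 17 were called, 5 higher and 1 lower, where 55.1% of all genes were called. Map2k1, which encodes the kinase MEK1, rose in both species, from 46.4 ± 6.86 to 82.4 ± 1.58 CPM in mouse (0.83, adjusted p = 0.000296) and from 103 ± 5.31 to 187 ± 12.2 CPM in spiny mouse (0.86, adjusted p = 2.31e-05), with a difference of 0.03 ± 0.13 (adjusted p = 0.885). Ptpn11, which encodes the phosphatase SHP2 that helps to activate Ras, rose in mouse from 135 ± 9.22 to 265 ± 16.8 CPM (0.98, adjusted p = 9.31e-05). In spiny mouse it was at 263 ± 11.6 and 259 ± 12.2 CPM (-0.02, adjusted p = 0.792), and the difference of -1.0 ± 0.11 passed (adjusted p = 6.67e-06). Ksr1, a scaffold that holds Raf, MEK and ERK together, fell in mouse (-0.65, adjusted p = 0.0109) and rose in spiny mouse (0.83, adjusted p = 0.000174). Araf, a Raf kinase, fell in mouse (-0.56, adjusted p = 0.000525) and had a log2 fold change of 0.00 in spiny mouse (adjusted p = 0.967). Rras, a Ras relative, fell in spiny mouse (-0.27, adjusted p = 0.0406), and Map2k2, for MEK2, had a smaller response there than in mouse (-0.70, adjusted p = 0.00299). Over the 17 genes 8 differed between the species, 2 larger and 6 smaller in spiny mouse, a share near the 46.1% of all genes. This split also depended on scaling, with 4 larger and 3 smaller under upper-quartile factors. Under library size alone it was 5 larger and 3 smaller, so no direction is given for the difference either.

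The second list held 15 genes whose proteins load Ras with GTP (exchange factors) or speed its hydrolysis (GAPs). In mouse 9 of 15 were called, near the 61.2% of all genes, and all 9 were lower, with a median of -0.57, where 35.3% of all genes were called lower. Without untreated mouse replicate 2 the count was 8, with 1 higher and 7 lower, and with DESeq2 size factors it was 9, with 1 higher and 8 lower. In spiny mouse 10 of the 14 tested were called, 4 higher and 6 lower, beside 55.1% of all genes. Rasgrp3, an exchange factor that responds to diacylglycerol, fell in both species (-1.43, adjusted p = 9.34e-05 in mouse, and -0.77, adjusted p = 0.000776 in spiny mouse). Rasgrf2, a calcium-responsive exchange factor, fell in both as well (-1.33, adjusted p = 0.000136 in mouse, and -0.66, adjusted p = 0.0224 in spiny mouse). So did Rasgrp1, a phorbol ester receptor (-0.84, adjusted p = 0.00152 in mouse, and -1.07, adjusted p = 0.000326 in spiny mouse), whose difference of -0.23 did not pass (adjusted p = 0.416). Rasgrp4, an exchange factor known from mast cells, fell in mouse from 11.5 ± 0.924 to 5.77 ± 1.31 CPM (-0.99, adjusted p = 0.00123) and rose in spiny mouse from 8.77 ± 1.89 to 20.0 ± 4.60 CPM (1.19, adjusted p = 0.00084), a difference of 2.17 ± 0.27 (adjusted p = 1.53e-05). Rasal3, a GAP of blood cells, rose in spiny mouse (1.26, adjusted p = 0.000167) and was at -0.57 in mouse (adjusted p = 0.0659), a difference of 1.83 (adjusted p = 6.84e-05). The leukocyte markers given above moved the same way as these last genes in spiny mouse, and their part was not tested. Dab2ip, another GAP, had the opposite difference (-0.59, adjusted p = 0.00345). In all, 9 of 14 genes differed between the species, 8 larger and 1 smaller in spiny mouse, beside 46.1% of all genes called different and 21.4% called larger.

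The third list held 24 further phosphatases, Sprouty and Spred inhibitors and transcriptional targets of ERK. In mouse 19 of the 23 tested were called, 16 higher and 3 lower, with a median of 0.84 against -0.15 over all genes, of which 61.2% were called and 25.9% called higher. In spiny mouse 15 of 24 were called, 8 higher and 7 lower, with a median of 0.05, beside 55.1% of all genes called. Dusp14 moved most between the species. It went from 26.9 ± 7.45 to 273 ± 16.4 CPM in mouse (3.34, adjusted p = 5.82e-06) and from 128 ± 76.0 to 60.1 ± 14.5 CPM in spiny mouse (-1.09, adjusted p = 0.0397), a difference of -4.43 ± 0.48 (adjusted p = 5.08e-06). Dusp2, a nuclear phosphatase known from lymphocytes, rose in mouse from 3.10 ± 1.45 to 37.5 ± 7.16 CPM (3.60, adjusted p = 2.26e-05) and was at 9.80 ± 5.49 and 10.4 ± 5.24 CPM in spiny mouse (0.08, adjusted p = 0.893). Its difference was -3.52 ± 0.6 (adjusted p = 0.000242). Dusp8 and Dusp10, phosphatases that act mainly on the stress kinases JNK and p38, fell in spiny mouse (both -1.54, adjusted p = 0.000555 and 0.000101). In mouse Dusp8 rose (0.82, adjusted p = 0.000389) and Dusp10 did not pass (0.19, adjusted p = 0.328). Their species differences were -2.36 (adjusted p = 8.83e-06) and -1.73 (adjusted p = 3.91e-05). Dusp1, a nuclear phosphatase of several MAP kinases, fell in mouse (-0.89, adjusted p = 0.000978) and in spiny mouse (-0.56, adjusted p = 0.00683), and the difference of 0.34 did not pass (adjusted p = 0.207). Etv1, the remaining gene of the PEA3 group, fell in mouse (-0.63, adjusted p = 0.0218) and was at 0.09 in spiny mouse (adjusted p = 0.467).

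All 8 genes of that list called higher in spiny mouse were also called higher in mouse. They were Dusp7, Spred1, Errfi1, Phlda1, Epha2, Ccnd1, Fosl1 and Myc. Of the 13656 genes tested in both species, 15.1% were called higher in both. Phlda1, a growth factor-induced gene, rose from 7.47 ± 0.833 to 32.7 ± 2.40 CPM in mouse (2.13, adjusted p = 4.18e-06) and from 13.6 ± 3.58 to 46.2 ± 4.48 CPM in spiny mouse (1.77, adjusted p = 6.39e-05). Fosl1, for the AP-1 subunit FRA1, rose by 1.82 (adjusted p = 0.00156) and 1.39 (adjusted p = 0.00267) on the log2 scale, at mean levels under 4 CPM. Dusp7, Egr1 and Epha4 were picked out after their values were seen. Dusp7, a cytoplasmic ERK phosphatase of the same subfamily as Dusp6, rose from 129 ± 29.1 to 345 ± 20.8 CPM in mouse and from 148 ± 4.95 to 370.2 ± 23.7 CPM in spiny mouse, with log2 fold changes of 1.41 and 1.33 and a difference of -0.09 ± 0.18 (adjusted p = 0.718). Egr1, an immediate early transcription factor, rose in mouse (1.55, adjusted p = 0.00028) and was at -0.10 in spiny mouse (adjusted p = 0.425). Epha4, an ephrin receptor, rose in mouse (1.47, adjusted p = 1.83e-05) and fell in spiny mouse (-0.50, adjusted p = 0.00438). Over the third list 12 of 23 genes differed between the species, 1 larger (Etv1) and 11 smaller in spiny mouse, with a median difference of -0.41. Of all genes, 46.1% were called different and 24.7% smaller.

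**Figure D4:**
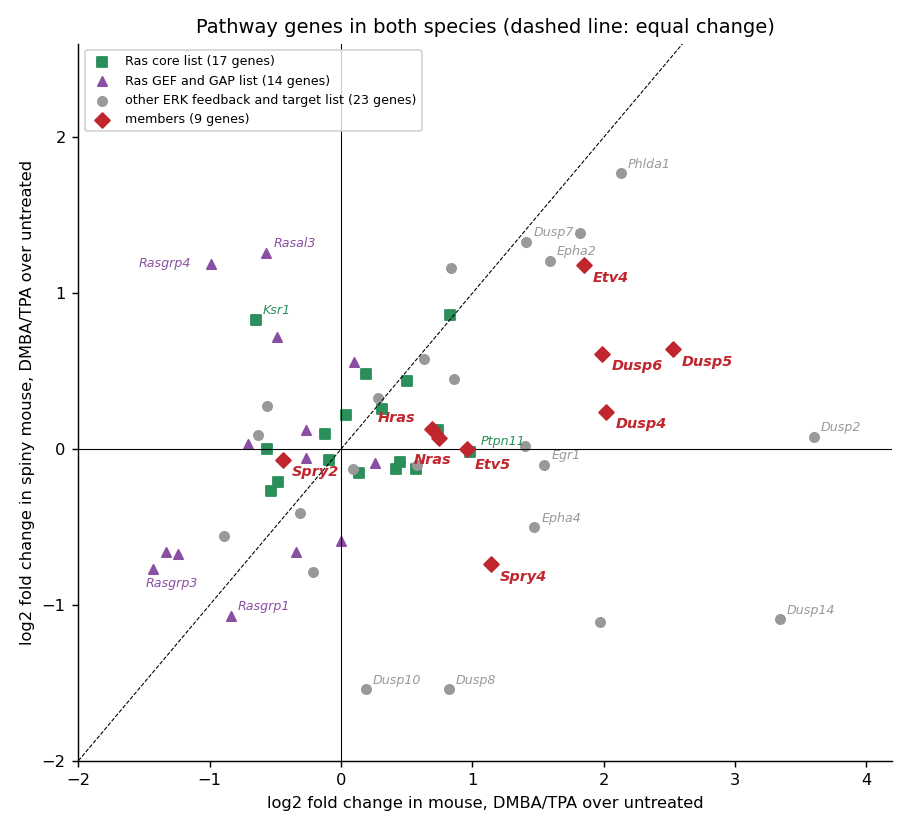
Log2 fold change with DMBA/TPA in mouse (x axis) against that in spiny mouse (y axis) for the 9 genes and for the genes of the 3 pathway lists tested in both species, with a dashed line where both are equal. Most of the 9 genes lie right of the line, Dusp7 and Phlda1 lie near it, and Spry4, Epha4 and Dusp14 lie below 0 in spiny mouse.

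Within groups, pairs of the 9 genes varied together in some cases and oppositely in others. Over the 36 pairs of genes, the correlation of log2 CPM deviations from the group means across the 8 samples of a species had a median of 0.04 in mouse (range -0.84 to 0.91) and 0.20 in spiny mouse (range -0.55 to 0.93). In mouse 8 pairs were above 0.7, led by Hras with Dusp5 (0.91), and 2 were under -0.7. In spiny mouse 4 pairs were above 0.7, led by Dusp5 with Etv5 (0.93), and 0 were under -0.7. These values describe 8 libraries per species, which share depth and scaling within a sample. Untreated mouse replicate 2 was the lowest untreated sample for Hras, Nras, Dusp5 and Spry2 and the highest for Dusp4 and Etv4, and its part in the mouse correlations was not tested.

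Likeness to each gene was ranked, among 9944 genes expressed at an average log2 CPM of 3 or more in each species, by the smaller of the 2 within-species Pearson correlations over 8 samples each, treated and untreated together. A gene that shifts with treatment in the same direction as the ranked gene in each species tends to score high on this measure. Hras, Nras, Dusp4, Spry2 and Etv5 were not called in spiny mouse, so their spiny mouse values also reflect the spread between samples. Nearest to Dusp5 was Sprr1a (0.975 in mouse and 0.963 in spiny mouse), followed by Plk3 (0.989 and 0.961) and Smox (0.991 and 0.957). For Dusp6 these were Epop (0.976 and 0.982), Psmd2 (0.974 and 0.965) and Creld2 (0.964 and 0.965). Etv4 was followed most closely by Kif15, Lmnb1 and Exo1, each at 0.98 or more in both species. For Spry4, which moved opposite ways in the species, Spats2 (0.952 and 0.945), Bag3 (0.943 and 0.944) and Trim41 (0.987 and 0.922) came closest. For Hras they were Ppib (0.968 and 0.947), Rpl6 (0.966 and 0.943) and Mapk13 (0.939 and 0.976), and for Nras they were Klhl18 (0.955 and 0.97), Ddx3x (0.985 and 0.949) and Eif4e2 (0.98 and 0.945). Nearest to Dusp4 were Trpm6 (0.94 and 0.932), D630045J12Rik (0.849 and 0.848) and Pacs1 (0.882 and 0.845). Spry2 was nearest to Ctdsp1 (0.958 and 0.898), Efs (0.966 and 0.896) and Asb8 (0.881 and 0.899), and Etv5 to Tspan7 (0.962 and 0.919), Slc39a14 (0.93 and 0.909) and Sema7a (0.926 and 0.896).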

How the data were processed

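The authors deposited raw fragment counts per gene in 1 table per species. Per the file headers, they were made with featureCounts 2.0.3 from read pairs with both ends mapped and with no strand option, on GRCm39 with Ensembl 108 or on AcoCah2. The submitters' processing notes name Trim Galore and HISAT2. Exonic gene lengths are as deposited by the authors. Treated columns carry the labels' library names. Columns of untreated samples have a different code, and were matched to samples through its species letter and number, and that of untreated mouse replicate 2 has a further suffix. Mouse symbols came from GENCODE M39, which left 744 of 56980 identifiers unnamed, and the spiny mouse table names its 19818 genes.

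Each species was filtered with filterByExpr, TMM-scaled and tested in edgeR 4.0.16 (R 4.3.3) by quasi-likelihood, with Benjamini-Hochberg adjustment over all genes and calls at 0.05. The species difference was the species by treatment interaction over 13656 shared symbols. The SE is the log2 fold change over the square root of F. Log2 CPM used a prior count of 2. The fits were tested on simulated data. Promoters came from RefSeq (GRCm38.p6). Alternatives were DESeq2 1.42.0 (Wald test, size factors), upper-quartile factors, library size, other filters, a replicate block, each library left out and, added after seeing the data, another TMM reference library.

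The 9 genes and the lists were chosen with earlier results of these data known. Named besides the 9 are, per list and comparison, up to 2 called genes with the largest rise and fall with average log2 CPM of 1 or more, and the 3 genes most like each of the 9. Genes of the third list called higher in both species are named as well. Dusp7, Egr1 and Epha4 were picked out for their values after these were seen. No fragments carry molecular identifiers, and 3 counts correspond to 0.109 to 0.158 CPM in mouse.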

Additional observations from a re-analysis of the deposited data

Results flagged for a closer look

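For 7 of the 9 genes the response to DMBA/TPA differed between the species by the interaction test of edgeR. Of all 13656 genes tested in both species, 46.1% were called different and 24.7% smaller in spiny mouse. The spiny mouse minus mouse difference in log2 fold change was -0.68 for Nras, -1.78 for Dusp4, -1.88 for Dusp5, -1.39 for Dusp6, -1.88 for Spry4, -0.67 for Etv4 and -0.96 for Etv5. The value for Etv4 depends on single libraries, as given above. None of the 36 groups of 4 samples, 9 genes in 4 groups, held a sample far enough from the others to stand out by Dixon's criterion, a test that chance alone passes in about 1 group in 20.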

How the results depend on the processing

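Counts of called genes, over all genes and over the 9, stayed within 1.5 times the reported count in all alternatives. Across 8 other settings the 9 genes' directions held except for Etv5 in spiny mouse, where the log2 fold change of 0.00 became -0.005 with DESeq2 size factors and with the DESeq2 Wald test, -0.009 with library size alone and -0.04 with upper-quartile factors, and ran from -0.13 to 0.09 when 1 library was left out. Without length correction the Hras share was 51.1% and 50.9% in untreated and treated mouse skin and 50.1% and 51.0% in spiny mouse. Scaling moved the median log2 fold change of all mouse genes by -0.20 with upper-quartile factors and by -0.24 with library size alone, and by 0.15 with no filter. The median difference moved by 0.16, 0.22 and -0.13, and by -0.10 with DESeq2 size factors. The replicate block gave 11246 calls in mouse, 7418 in spiny mouse and 5723 for the difference, of which 11057, 7273 and 5597 were also called without it. It left 9, 4 and 6 of the 9 genes called, and the call it ended was the Etv4 difference. Same-numbered samples did not deviate together (mean correlation 0.01 in mouse and -0.36 in spiny mouse). In neither species did an untreated sample correlate best with its own number. Paired samples need not deviate together, so whether the numbers pair the samples stays unknown. The 3-count floor of 0.109 to 0.158 CPM in mouse lies far under every level of the 9 genes.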
